A study of Mus musculus with 4 samples.

Results

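The 10 genes described here encode the 5 NF-kB subunits (Nfkb1, Nfkb2, Rel, Rela and Relb) and 5 of the proteins that hold the pathway back (Nfkbia, Nfkbib, Nfkbie, Nfkbid and Tnfaip3). They were taken by symbol from both deposited tables, and all 10 were found among the 10679 rows of the regulatory T cell table and the 23284 rows of the vector table. All 10 also had a mean level of 1 FPKM or more over the libraries of each experiment, the filter used here (FPKM, fragments per kb of transcript scaled to library size, is a level per gene length). In the first experiment, splenic regulatory T cells (Treg) of Balb/c Foxp3-hCD2 reporter mice, purified as hCD2-positive cells, came from non-treated mice or from mice given 3% DSS in the drinking water for 7 days. DSS, dextran sulfate sodium, injures the colon and causes colitis in mice. In the second, naive CD4 T cells from wild-type animals of the C57BL6 strain received a mock vector or a vector with the transcription factor Sox12. Each of the 4 groups is 1 library. No difference between groups could be set against a spread between replicates, so no test was run, and "higher" and "lower" below compare 2 libraries. The number of animals behind a library and the share of cells that took up a vector were not given in the sources used here.

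NF-kB proteins work as dimers that bind DNA through a Rel homology region. In resting cells most dimers are held in the cytoplasm by inhibitors of the IkB family, and signals from the T cell receptor and from TNF family receptors free them by having the IkB protein phosphorylated and degraded. Rela, Rel and Relb carry an activation domain, while Nfkb1 and Nfkb2 are made as long precursors that end in IkB-like repeats and are processed to short DNA-binding proteins. In Treg the pathway is known for its part in Foxp3 expression, where Rel acts in the thymus. Several of its genes are textbook targets of NF-kB itself.

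The promoter sequences of the members are shown first because NF-kB sites in them are the known basis of this feedback. RefSeq windows on GRCm38.p6, from 250 bases before to 50 bases after a start site, were at hand for 8 of the 10 members, and Nfkb1 and Relb were not in the table. The NF-kB consensus of 10 bases, searched on both strands, lay in at least 1 window of 6 of these 8 genes (Nfkb2, Nfkbia, Nfkbid, Nfkbie, Rel and Tnfaip3). It lay in 8.46% of all 32851 windows of that length and in at least 1 window of 9.55% of all 27025 genes. Rela and Nfkbib had 0 matches in their windows. The 150 bases before the start site of 5 members are printed 5′ to 3′ on the gene's strand, with bases that belong to a match in capitals and overlapping matches run together.
Nfkb2, chr19:46304587-46304736, plus strand: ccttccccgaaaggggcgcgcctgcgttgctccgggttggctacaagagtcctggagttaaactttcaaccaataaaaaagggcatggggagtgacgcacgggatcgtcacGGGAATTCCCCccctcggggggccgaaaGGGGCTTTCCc
Rel, chr11:23770970-23771119, minus strand: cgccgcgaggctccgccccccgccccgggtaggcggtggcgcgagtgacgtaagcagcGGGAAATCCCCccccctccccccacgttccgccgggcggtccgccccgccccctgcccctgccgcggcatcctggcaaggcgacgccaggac
Nfkbia, chr12:55492648-55492797, minus strand: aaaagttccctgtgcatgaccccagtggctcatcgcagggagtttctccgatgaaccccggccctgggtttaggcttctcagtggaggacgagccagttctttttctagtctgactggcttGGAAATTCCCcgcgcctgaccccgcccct
Nfkbie, chr17:45555550-45555699, plus strand: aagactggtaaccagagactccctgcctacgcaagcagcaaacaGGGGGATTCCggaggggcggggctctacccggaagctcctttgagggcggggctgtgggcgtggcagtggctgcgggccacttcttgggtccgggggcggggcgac
Tnfaip3, chr10:19015411-19015560, minus strand: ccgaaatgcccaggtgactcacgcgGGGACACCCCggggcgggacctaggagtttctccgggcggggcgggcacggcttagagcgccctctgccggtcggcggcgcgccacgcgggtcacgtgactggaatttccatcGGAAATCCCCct

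The Nfkb2 window shown held 3 matches, a count reached by 0.186% of all windows. Of these, 2 overlap in the run GGGAATTCCCC, whose first 10 bases read the same on both strands, and the third, GGGGCTTTCC, ends 2 bases before the start site. Nfkb2 has 2 further windows, which overlap and share a match, GGGACTTTCC. The Nfkbia match, GGAAATTCCC on the gene's strand, starts 29 bases before the start site. In Tnfaip3 a match started 12 bases before the start site and another 125 bases before it. Nfkbid, not printed, held GGGACTTCCC and GGAATTCCCC in 1 of its 3 windows. These are matches of letters, and no binding was measured.

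**Figure D1:**
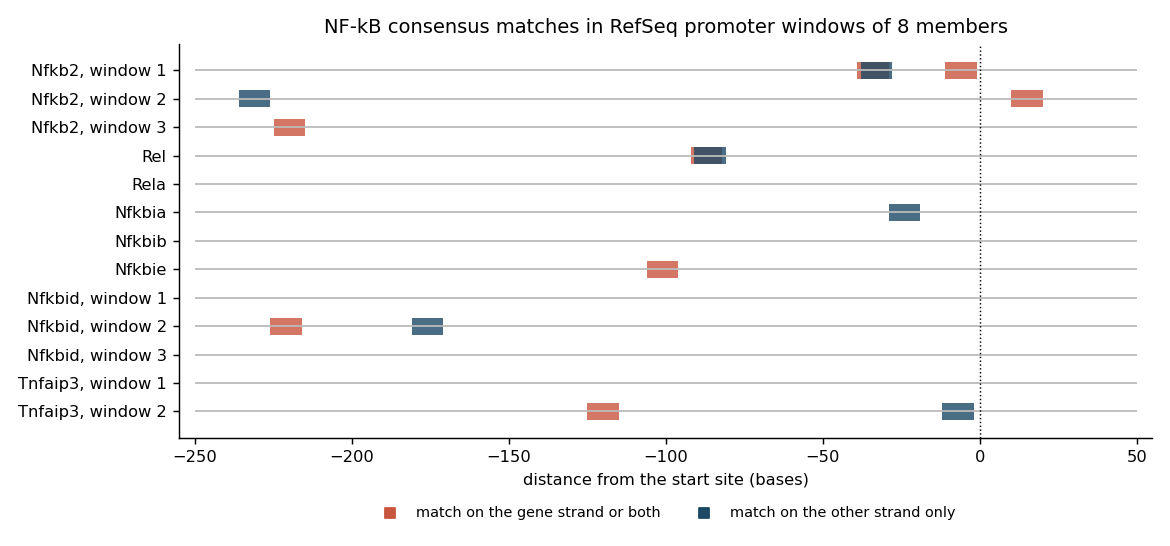
Map of matches to the NF-kB consensus in the RefSeq promoter windows of 8 members; the x axis is the distance from the start site in bases, each grey line is 1 window of 300 bases, and blocks are matches, coloured by strand. Nfkb2 window 1 holds 3 matches, and the windows of Rela and Nfkbib hold 0.

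The libraries carried the markers of their labels. Cd3e, a chain of the T cell receptor complex, stood at 468 and 473 FPKM in Treg without and with DSS, and Foxp3, the lineage factor of Treg, had 88.2 and 84.9 FPKM. In the transduced cells Cd4 stood at 261 and 185 FPKM. Sox12 stood at 1.56 FPKM after mock and 829 FPKM after Sox12 transduction, without a separation of vector and endogenous transcripts. There, 1 FPKM stood for about 42.8 fragments per kb in the mock and 44.7 in the Sox12 vector library, so that the ratios of members had counting errors between 1.02% and 4.04%. Counting error covers neither library preparation nor animals. The depth of the Treg libraries is unknown. In bulk samples, fewer cells of a type and less RNA per cell cannot be told apart.

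In Treg the NF-kB genes were close in level in the untreated and DSS libraries. The ratio of DSS to untreated FPKM ran from 0.817 for Nfkb2 to 1.11 for Tnfaip3, with 3 genes higher and 7 lower. Changes are given as differences of log2(FPKM + 1), treated minus control. None of the 10 members had a change of 0.32 or more in size. Of the 10545 genes past the filter 6.35% did, so for 10 genes this count lay near the share of all genes. Of all genes, 33.9% were lower in DSS Treg, and their median change was 0.05, against -0.04 for the members. With the 75th percentiles of the libraries made equal, 8 members were lower, against 44.5% of all genes.

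Among the subunits of Treg, Nfkb1, the precursor of the p50 subunit, was the most abundant. It stood at 90.2 FPKM without and 89.7 FPKM with DSS. Rela, the activating subunit p65 of the classical dimer, had 38.8 and 40.6 FPKM. Nfkb1 was thus near the same level in both libraries and Rela slightly higher with DSS. Rel, known for its part in thymic Treg formation, was the least abundant subunit, at 13.8 and 14.05 FPKM, and its change of 0.02 turned to a negative value under each of the 3 other scalings.

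Nfkb2 and Relb had the most negative changes of the subunits in DSS Treg. They belong to the non-canonical arm, in which the Nfkb2 precursor is processed and pairs with Relb. Nfkb2 stood at 31.4 FPKM without and 25.7 FPKM with DSS, a change of -0.28. Only 2.61% of genes had a more negative change than Nfkb2. Relb had 20.6 and 18.6 FPKM, a change of -0.14, and 8.35% of genes lay below it. The share of Nfkb2 in the summed FPKM of the 5 subunits, which no scaling of a library can alter, was 16.1% in untreated and 13.6% in DSS Treg. For Rela that share was 19.9% and 21.5%.

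Among the inhibitors of Treg, Nfkbia, which encodes IkB-alpha, the inhibitor that is degraded and made anew within each response, was the most abundant of the 10 members. It stood at 173 FPKM without and 168 FPKM with DSS, a higher level than 97.8% of genes in the untreated library. Nfkbib, for IkB-beta, had 15.5 and 15.03 FPKM. Nfkbie, for IkB-epsilon, had 16.7 and 15.3 FPKM, the lowest change among the inhibitors at -0.12. Nfkbid encodes IkB-NS, a nuclear IkB protein known to promote Foxp3 induction, and it had 23.5 and 22.7 FPKM. These 4 inhibitors were lower in the DSS library by small amounts. Tnfaip3 encodes the ubiquitin-editing enzyme A20, which acts upstream of the kinase complex, and it was the inhibitor that was higher, at 56.9 and 63.0 FPKM, a change of 0.15. The summed FPKM of the subunits over that of the inhibitors was 0.684 in untreated and 0.665 in DSS Treg.

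Markers of other cells differed between the Treg libraries. The 6 erythroid markers were higher in DSS Treg, with a summed level of 399 and 614 FPKM, and so were the 5 basophil and mast cell markers, with 7.49 and 28.5 FPKM. Of 5 B cell markers 2 were listed (Cd79a and Cd79b, 8.67 and 9.15 FPKM summed), and of 9 myeloid and dendritic markers 2 were listed (Lyz2 and Zbtb46, 9.13 and 7.39 FPKM summed). Of 6 NK and CD8 T cell markers 3 were listed, with 27.1 and 23.3 FPKM summed. Of the lists' defining markers, Ms4a1, Csf1r, Itgam, Cd8a and Ncr1 were not among the listed genes. Only genes above 1 FPKM in at least 1 Treg library are listed. The part of such other cells in the values of the NF-kB genes was not tested.

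**Figure D2:**
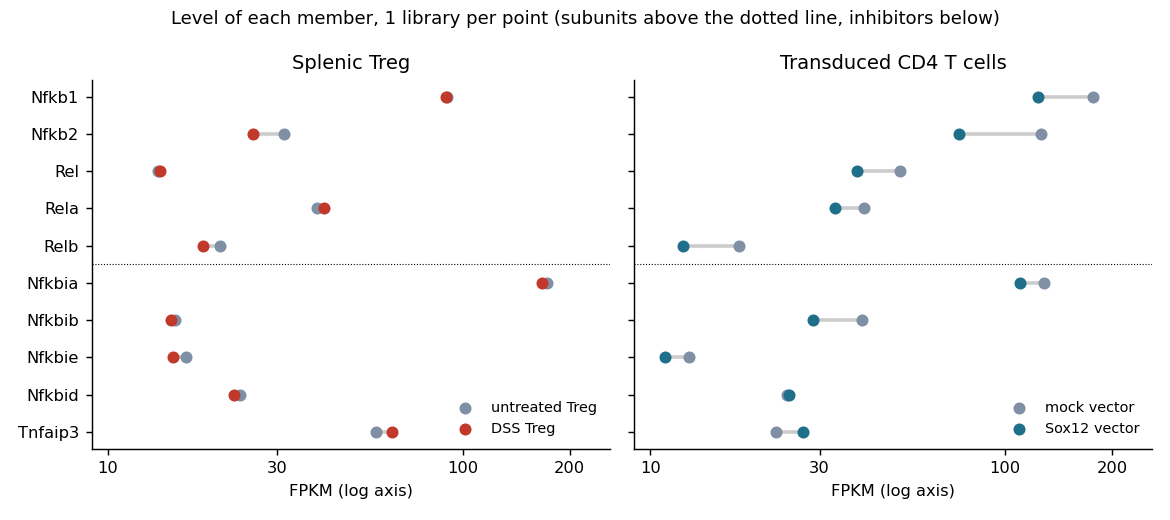
FPKM (x axis, log scale) of the 10 members, with subunits above and inhibitors below the dotted line; each point is 1 library and a grey line joins the 2 libraries of an experiment. The Treg pairs nearly coincide, with Nfkb2 at 31.4 and 25.7 FPKM the widest apart on this scale, while in transduced cells each subunit lies lower with the Sox12 vector.

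In transduced CD4 T cells the 5 subunits were lower with the Sox12 vector than with the mock vector, with ratios between 0.588 and 0.832, and 3 of the 5 inhibitors were lower (4 of 5 with the 75th percentiles of the libraries made equal). The median change of the 10 members was -0.32, against -0.01 for all 10822 genes past the filter, of which 51.1% were lower. No member differed by 2 times, against 6.76% of genes. By at least 1.5 times 1 member was lower, Nfkb2, against 6.88% of genes. For 10 genes both counts lay near the shares of all genes. By a change of 0.32 or more 5 members were lower (Nfkb2, Nfkb1, Relb, Nfkbib and Rel) and 0 were higher, against 16.9% and 18.9% of genes. The filter did not choose these genes, since each had at least 11.0 FPKM in both libraries.

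Nfkb2 had the most negative change of the members. It stood at 126 FPKM after mock and 74.3 FPKM after Sox12 transduction, a change of -0.76 and a ratio of 0.588 (95% counting interval 0.573 to 0.603). Only 3.86% of genes had a more negative change than Nfkb2. Its partner Relb, the lowest subunit in both libraries, had 17.8 and 12.4 FPKM, a ratio of 0.697 (0.647 to 0.750). The ratio of Nfkb2 to Relb within a library was 7.12 with the mock and 6.01 with the Sox12 vector.

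The subunits of the classical arm were lower too. Nfkb1, the most abundant member in both vector libraries, stood at 177 FPKM after mock and 124 FPKM after Sox12 transduction, a change of -0.51 and a ratio of 0.699 (0.686 to 0.714). Rel had 50.5 and 38.3 FPKM, a change of -0.39 and a ratio of 0.760 (0.742 to 0.777). Rela had 39.9 and 33.2 FPKM, a change of -0.26, the smallest of the subunits. None of the counting intervals of the 5 subunits reached a ratio of 1, and each subunit stayed lower under each of the other scalings. The summed FPKM of the 5 subunits was 412 with the mock and 282 with the Sox12 vector.

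The proportions among the subunits were compared next. Nfkb1 made up 43.0% of the subunits' summed FPKM with the mock and 43.9% with the Sox12 vector. Nfkb2 made up 30.7% and 26.3%, and Rela 9.70% and 11.8%. The remaining shares were 12.3% and 13.6% for Rel and 4.31% and 4.39% for Relb. In Treg, Nfkb1 made up 46.3% without and 47.6% with DSS, and Rel 7.09% and 7.45%. A lower share of Nfkb2 and higher shares of Rela, Nfkb1 and Rel were thus found in the treated library of both experiments. Shares within a library add to a fixed total, so a lower share of Nfkb2 goes with higher shares elsewhere. There was no replicate to set these shares against.

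**Figure D3:**
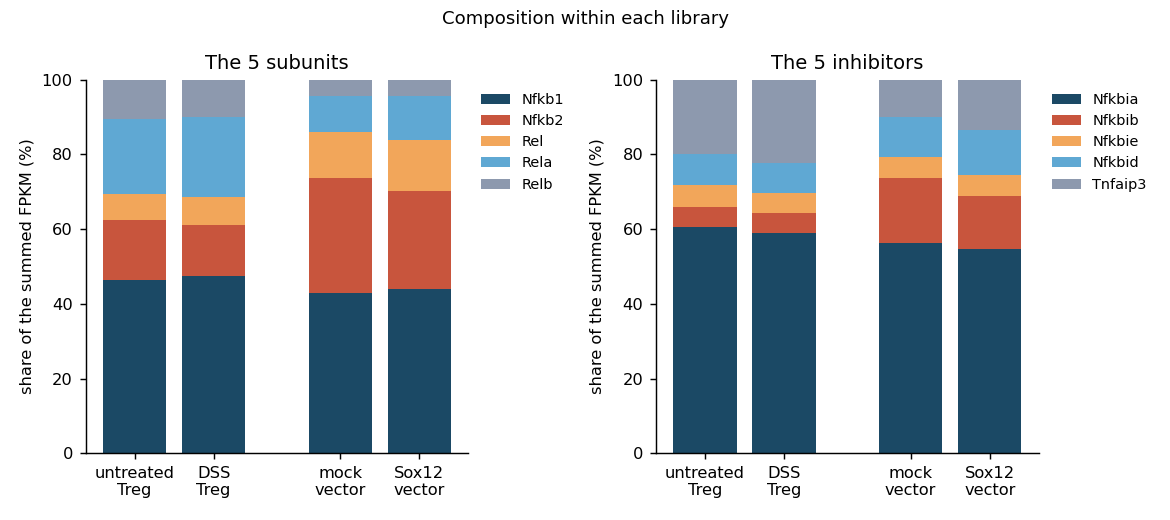
Share of each gene in the summed FPKM (y axis, %) of the 5 subunits (left) and of the 5 inhibitors (right), 1 bar per library. The Nfkb2 share is 16.1% and 13.6% in untreated and DSS Treg and 30.7% and 26.3% with the mock and Sox12 vector.

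The inhibitors did not move together with the Sox12 vector. Nfkbia stood at 128 FPKM after mock and 109.8 FPKM after Sox12 transduction, a ratio of 0.856 (0.830 to 0.882). Nfkbib had 39.5 and 28.7 FPKM, a ratio of 0.727 (0.681 to 0.776) and the lowest of the inhibitors. Nfkbie, the least abundant member, had 12.8 and 11.0 FPKM, a ratio of 0.859 (0.794 to 0.930). These IkB genes were lower, by amounts beyond counting error.

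Nfkbid and Tnfaip3 did not share the lower level. Nfkbid had 24.3 and 24.6 FPKM, a ratio of 1.01 (0.954 to 1.08), and its change of 0.02 became -0.01 when the 75th percentiles of the libraries were made equal. Tnfaip3 stood at 22.7 FPKM after mock and 26.9 FPKM after Sox12 transduction, a ratio of 1.19 (1.14 to 1.23) and a change of 0.24. It was higher under each of the other scalings too. Tnfaip3 made up 9.96% of the inhibitors' summed FPKM with the mock and 13.4% with the Sox12 vector, and Nfkbib 17.4% and 14.3%. The ratio of Tnfaip3 to Nfkb2 was 0.179 and 0.361. These are the members with the most positive and the most negative change, so any other pair of members differed less. The summed FPKM of the subunits over that of the inhibitors was 1.81 with the mock and 1.40 with the Sox12 vector.

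The order of levels was the same in both vector libraries except for Nfkbid and Tnfaip3, which changed places. From the highest it ran Nfkb1, Nfkbia, Nfkb2, Rel, Rela, Nfkbib, then Nfkbid and Tnfaip3, Relb and Nfkbie. With the mock vector Nfkbia exceeded Nfkb2 by 1.44% (counting error 1.33%) and Rela exceeded Nfkbib by 1.11% (2.63%), so the counting intervals of these neighbours' ratios held 1. With the Sox12 vector Nfkbia exceeded Nfkb2 by 47.6%. The order in Treg was another one, with Nfkbia first, Nfkb1 next and Tnfaip3 after it in both libraries. The tables were made separately from other strains and cells, so levels are not compared between them.

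**Figure D4:**
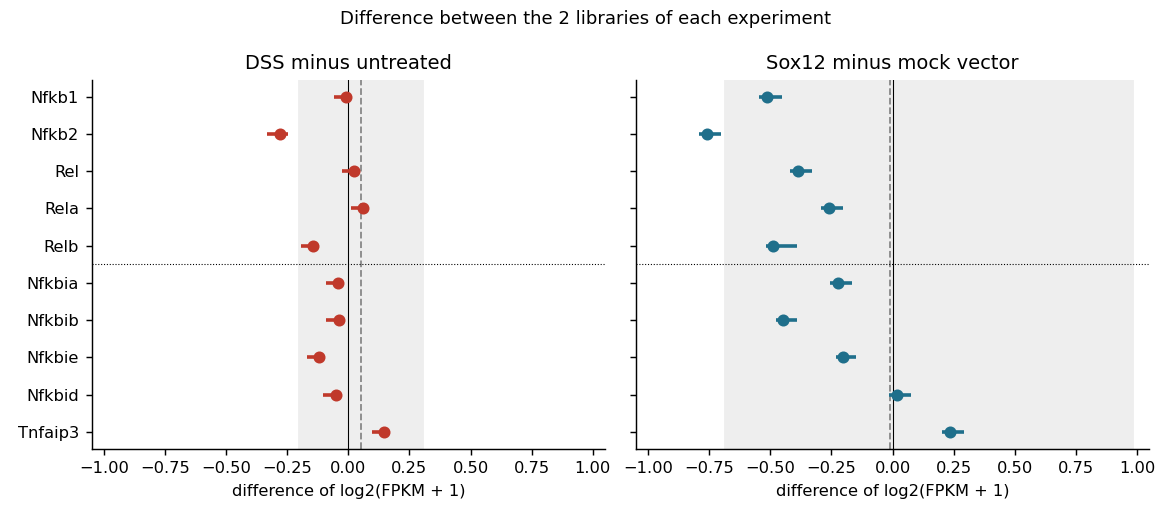
Difference of log2(FPKM + 1) (x axis) of each member in Treg (left) and transduced cells (right); points are values as deposited, bars their range over the alternative settings, the grey band the central 90% of genes past the filter and the dashed line their median. Nfkb2 lies outside the band in both experiments, at -0.28 and -0.76, and Tnfaip3 is the highest of the 10 in both but lies inside the band.

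Both experiments have their own control, so they share no library. In both, Nfkb2 had the most negative change of the 10 members and Tnfaip3 the most positive one. Among all genes the change of Tnfaip3 was not extreme. It lay above that of 77.3% of genes in Treg and of 76.0% with the Sox12 vector. Of the 10 members, 6 were lower in both experiments (Nfkb1, Nfkb2, Relb, Nfkbia, Nfkbib and Nfkbie) and 1 was higher in both (Tnfaip3). Of the 9958 genes past the filter in both experiments, 18% were lower in both and 32.7% higher in both, as deposited. The share of all genes lower in DSS Treg was 33.9% as deposited and 44.5% with equal 75th percentiles. The shares for both experiments were not recomputed under the other scalings. In DSS Treg the changes of Nfkb1, Nfkbia and Nfkbib were small, at -0.008, -0.041 and -0.040. Across the 10 genes the changes of the experiments had a Pearson r of 0.70 and a Spearman rho of 0.38, a description over genes that are not independent. Without Nfkb2 they were 0.51 and 0.15.

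Markers of other cells were measured beside these values in the vector libraries too. The 6 NK and CD8 T cell markers were higher with the Sox12 vector, with a summed level of 105 and 268 FPKM, of which Nkg7, a granule protein of cytotoxic cells, held 80.0 and 215 FPKM. Their part in the result was not tested. B cell and myeloid markers were near 0 in both libraries. The 5 B cell markers summed to 2.13 and 2.40 FPKM. The 8 myeloid and dendritic markers in the table summed to 3.53 and 3.99 FPKM, of which Zbtb46 held 3.10 and 3.26 FPKM and Csf1r was listed at 0 in both. The 6 erythroid markers summed to 49.1 and 13.8 FPKM, of which Hbb-b1 held 46.6 and 9.27 FPKM. Hba-a1 went the other way, at 1.74 and 4.23 FPKM, and the remaining erythroid markers lay below 1 FPKM in both libraries. The 5 basophil and mast cell markers summed to 0.666 and 0.564 FPKM, with Prss34 and Ms4a2 listed at 0 in both.

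The kinases and adaptors that act upstream of the members showed no common direction in either experiment. Of 15 such genes, 7 were higher and 8 lower in DSS Treg (6 and 9 under each of the other scalings), and 0 had a change of 0.32 in size. With the Sox12 vector 9 were higher and 6 lower, and 1 in each direction reached that size. The median change of 0.01 there turned to -0.02 with equal 75th percentiles. The shares of all genes that were lower were 33.9% in DSS Treg and 51.1% with the Sox12 vector. That size was reached by 6.35% of all genes in Treg. With the Sox12 vector 18.9% of all genes reached it as higher and 16.9% as lower. Prkcq, the protein kinase C of T cell receptor signals, had 113 and 112 FPKM in Treg and 43.4 and 78.7 FPKM with the mock and Sox12 vector. Ikbke, an IkB kinase-related kinase, had 110.5 and 92.7 FPKM in Treg. Tab2, an adaptor of the kinase TAK1, had 63.7 FPKM with either vector.

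Ubiquitin ligases and adaptors of the TRAF group were likewise divided. Of 11 genes, 6 were higher and 5 lower in DSS Treg, and 4 were higher and 7 lower with the Sox12 vector, with a median of -0.03 in the latter that turned to 0.02 with equal totals less the 20 highest genes. In Treg the split became 2 higher and 9 lower with equal 75th percentiles, where 44.5% of all genes were lower. As deposited, 33.9% of all genes were lower in DSS Treg and 51.1% with the Sox12 vector. Traf1, an adaptor of TNF family receptors, had 53.6 and 46.6 FPKM in Treg and 63.2 and 52.7 FPKM in transduced cells. Rbck1, a part of the linear ubiquitin ligase, had 71.0 FPKM in both Treg libraries and 61.2 and 61.9 FPKM in transduced cells.

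Other IkB proteins and brakes of the pathway were higher in 7 of the 11 cases past the filter in DSS Treg (median 0.11). With the median of all genes set to 0 the count was 6 of 11. Of all 10545 genes, 6965 were higher as deposited, so the 7 of 11 lay near the share of all genes. With the Sox12 vector 8 of 12 were lower (median -0.08), against 51.1% of all genes. Tnip1, which works with A20, had 62.3 and 57.1 FPKM in Treg and 55.5 and 45.6 FPKM in transduced cells. Tax1bp1, an adaptor of the same enzyme, had 69.7 and 76.4 FPKM in Treg and 74.4 and 71.1 FPKM in transduced cells. No gene of the list differed by 2 times in either experiment.

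Of the 7 TNF family ligands that feed the pathway, 5 were lower in DSS Treg and 6 with the Sox12 vector. Their medians were -0.16 and -0.82, and 33.9% and 51.1% of all genes were lower. Ltb, lymphotoxin beta, had 439 and 394 FPKM in Treg, and Lta, its partner, had 27.8 and 21.5 FPKM. With the vectors, Tnfsf11, the ligand RANKL, had 169 and 59.3 FPKM and Cd40lg had 125 and 56.7 FPKM, a change of -1.13. Of 7 receptors past the filter, 4 were higher and 3 lower in each experiment, which in Treg became 2 higher and 5 lower under each other scaling. Tnfrsf4, which encodes OX40, had 423 and 180 FPKM with the mock and Sox12 vector, whereas Cd27 had 26.5 and 86.8 FPKM. In Treg, Cd27 had 187 and 183 FPKM and Tnfrsf18, for GITR, 139 and 148 FPKM.

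Textbook targets of NF-kB outside the members were split in transduced cells and spread far wider than the members. Of 28 such genes, some also in the lists above, 11 were higher and 17 lower (median -0.20), against 51.1% of all genes lower. By at least 2 times 5 of the 28 were higher and 2 lower, against 6.76% of all genes in either direction. The named ones were Foxp3 at 20.9 and 127 FPKM, interferon-gamma (Ifng) at 41.3 and 191 FPKM, the T cell growth factor Il2 at 35.1 and 8.40 FPKM, and the transcription factor Irf1 at 15.7 and 46.0 FPKM. In DSS Treg 10 of the 24 past the filter were higher and 14 lower (median -0.07), or 7 and 17 with equal 75th percentiles. Of all genes, 33.9% were lower in DSS Treg, or 44.5% with equal 75th percentiles. The chemokine Ccl3 had 0.288 and 2.83 FPKM there, a low level. Several of these genes also respond to other factors.

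**Figure D5:**
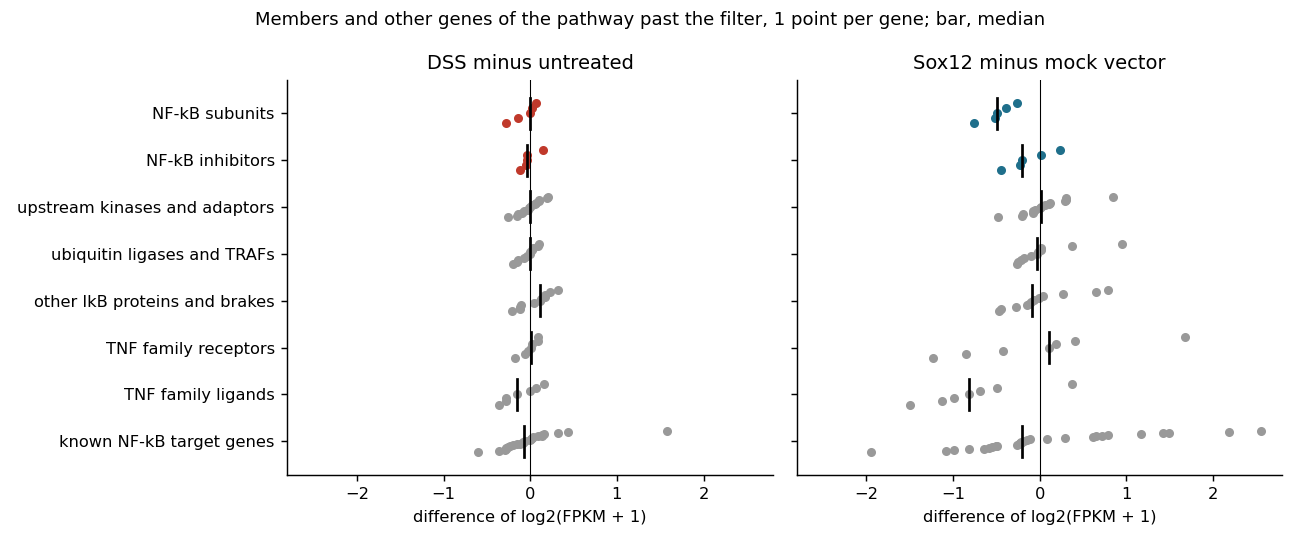
Difference of log2(FPKM + 1) (x axis) of members (coloured) and other genes of the pathway (grey) past the filter, 1 point per gene, with a bar at each list's median, for DSS minus untreated (left) and Sox12 minus mock vector (right). With the Sox12 vector the 5 subunits lie below 0 (median -0.49) and the upstream kinases and adaptors around it (median 0.01).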

How the data were processed

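The 4 RNA libraries of mouse T cells were strand-specific, per the labels' protocols. The authors deposited FPKM for the Treg libraries with a fold ratio, and log2(FPKM + 1) for the vector libraries with a log2 difference, and the log2 values were turned back to FPKM. Cufflinks and mm9 are named in the submitters' processing notes. Which aligner and annotation were used, and whether strand was, is not given in the sources used here. The Treg table lists genes above 1 FPKM in at least 1 library. Rows whose symbol a spreadsheet had turned into a date were left out (16 and 25).

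Changes are differences of log2(FPKM + 1), with a pseudocount of 1, and understate low genes. Ratios are of FPKM. Genes whose mean over both libraries reached 1 FPKM were kept. A gene counts as differing by 1.5 or 2 times when its change reaches the log2 of that fold, and a smaller size of 0.32 was also counted. Groups of 1 library allow no test.

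The members and gene lists were chosen with earlier results of these data known. A marker of the lists is not reported here. Named genes are the 10 members and, per list and experiment, up to 4 genes with the largest changes of at least 1, else the 2 with the highest mean. Markers used to check a label or another cell type are also named outside this rule. Fragments per FPKM came from low values of the vector table in genes with 1 transcript in GENCODE M21 (17 and 18 genes at the most frequent value, of 162 and 212), and from each member's shortest basic coding transcript. They are estimates. Promoters are RefSeq's, on GRCm38.p6. Calls and scalings were tested on simulated data. With 1 library per group, that test could not include a measured spread between animals or library preparations. Python 3.11.15, pandas 2.3.3 and numpy 2.4.6 were used.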

Additional observations from a re-analysis of the deposited data

How the results depend on the processing

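Each result was recomputed with a pseudocount of 0.1 or 5, with no filter, with a mean of at least 5 FPKM, with the median change of all genes set to 0, with equal 75th percentiles, and with totals, less the 20 highest genes, made equal. Of 140 recomputed changes of single members 136 kept their direction and their side of 2 times. A pseudocount or a filter cannot reverse the direction of a member, so only the scalings could, and the 4 reversals came from them. The change of Rel in Treg became -0.028 with the median set to 0, -0.012 with equal 75th percentiles and -0.00087 with equal totals, and that of Nfkbid with the Sox12 vector became -0.014 with equal 75th percentiles. The count of members with a change of -0.32 or below in DSS Treg went from 0 to 1 (Nfkb2) with the median set to 0. The other counts stayed within 1.5 times. The recomputation at that size was chosen after seeing the data. The median change of the members ranged from -0.09 to -0.04 in Treg and from -0.36 to -0.27 in transduced cells. No paired analysis was possible because each group has 1 library, and for the same reason no library could be left out.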

Other observations

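The nuclear IkB proteins Bcl3 and Nfkbiz, which act as cofactors of NF-kB dimers on DNA, were named after their values were seen. With the Sox12 vector both were higher while the subunits were lower. Bcl3 had 23.2 FPKM with the mock and 40.9 FPKM with the Sox12 vector, and Nfkbiz had 14.6 and 23.5 FPKM. In Treg, Bcl3 had 14.1 FPKM without and 17.8 FPKM with DSS, and Nfkbiz had 25.7 and 23.6 FPKM, so of the pair Bcl3 was higher in both experiments. The anti-apoptotic target genes Bcl2a1a, Bcl2a1b and Bcl2a1d, also chosen after their values were seen, were lower with the Sox12 vector, with ratios of 0.656, 0.676 and 0.631. They are close copies of each other, and the split of reads between them is uncertain. Birc2, an inhibitor of apoptosis protein that restrains the non-canonical arm and was likewise chosen after its values were seen, had 18.8 FPKM with the mock and 37.3 FPKM with the Sox12 vector.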
